A study of Homo sapiens with 9 samples.

Results

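In the ChIRP-seq of K562 cells, 279 of 13754 joined loci held a peak obtained with LacZ probes together with a peak of another list. All samples come from K562, an established line of human erythroleukemia cells, with no further treatment named. In ChIRP, biotinylated oligonucleotides that pair with an RNA pull down the chromatin fixed to that RNA. One probe set was directed against the lncRNA SRA and the other against the bacterial LacZ transcript, which human cells lack, with 3 samples each. A list of MACS peaks in hg19 coordinates was available for each of these 6 samples, and the 3 input samples were not analysed here. Peaks of all lists lying up to 1000 bp apart were joined into loci, and a locus was kept when it held a LacZ peak and also an SRA peak or a peak of a second LacZ list. The loci were thus selected on the presence and position of peaks.

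LacZ peaks are the capture background of the method, and a place with peaks of both probe sets cannot be assigned to SRA from these lists. Several kinds of genomic DNA are known to give peaks in many pull-down assays. Satellite and other repeated DNA beside centromeres is only partly present in a genome assembly, so that reads of many copies are placed on a few. Contigs that could not be assigned to a chromosome hold similar repeats, among them ribosomal RNA genes. K562 also carries extra copies of the chromosome 22 and chromosome 9 segments that flank the BCR-ABL1 fusion. DNA copy number was not measured here, and its part in any result was not tested.

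The loci fell into 2 sets that differed in the lists that hold them. Of the 279 loci, 191 held both a LacZ and an SRA peak. The other 88 held peaks of at least 2 LacZ lists and no SRA peak, so the description as loci of both probe sets does not apply to them. Only 5 loci belonged to both kinds, with an SRA peak and peaks of 2 LacZ lists. The 7 loci with a peak in all 3 LacZ lists held no SRA peak, with an upper limit of 35.4% that includes the 3.50% of all loci with a LacZ peak. Since the peaks themselves chose the loci, counts, scores and widths are given as a description and no test was run. The 95% Wilson intervals cover counting error only. Depth is unknown, since no read numbers accompany the peaks.

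The 6 lists did not contribute alike. LacZ lists 1 and 2 held 2676 and 2617 peaks with a median width of 155 bp each, whereas LacZ list 3 held 290 peaks with a median width of 1113.5 bp and none narrower than 545 bp. The SRA lists held 4982, 4946, and 5187 peaks. At the loci named by the rules given below, overlapping peaks of these lists had the same bounds, so the lists were not treated as independent samples. Their bounds were not compared over all loci. Of the 279 loci, 29 held a peak of LacZ list 3, of which 12 also held an SRA peak. Without LacZ list 3 there were 257 loci, 179 of them with both probe sets.

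Peaks in the 279 loci were a small part of every list. They made up 6.95% of LacZ list 1, 6.42% of LacZ list 2, and 10.0% of LacZ list 3. In the SRA lists they made up 2.37, 2.51, and 2.18%. Over all joined loci, 2.03% met the rule, and 3.5% of the 5463 loci with a LacZ peak also held an SRA peak. This share was 3.46% (3.01 to 3.99%) for loci of 1 LacZ list and 5.38% (2.32 to 12.0%) for the 93 loci of 2 or 3 LacZ lists, with intervals that overlapped. The 83 loci shared by LacZ lists 1 and 2 held a LacZ list 3 peak in 8.43% of cases (4.15 to 16.4%), against 0.196% (0.106 to 0.360%) of the 5107 loci in only one of these lists. Of the same 83 loci, 6.02% (2.60 to 13.3%) held an SRA peak, against 3.41% (2.94 to 3.94%) of the 5107.

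The join over 1000 bp mixed peaks that coincide with peaks that only lie near each other. Of 5583 LacZ peaks, 80 shared at least 1 base with an SRA peak and 117 lay within 1000 bp of one without sharing a base. For gaps under 250 bp there were 32 LacZ peaks, for gaps of 750 to 1000 bp 25, and for gaps of 1001 to 1250 bp, just outside the limit, 28. The number of near neighbours therefore did not drop at the limit, and gaps of 1751 to 2000 bp still gave 30. The nearest LacZ peaks on either side of the limit had gaps of 999 and 1029 bp. Within 200 bp of the limit, 22 LacZ peaks with a median score of 43.9 lay inside and 22 with a median score of 45.9 outside. Between LacZ lists the numbers were different. There, 155 LacZ peaks shared a base with a peak of another LacZ list, only 39 more lay within 1000 bp, and gaps of 750 to 1000 bp held 4.

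**Figure D1:**
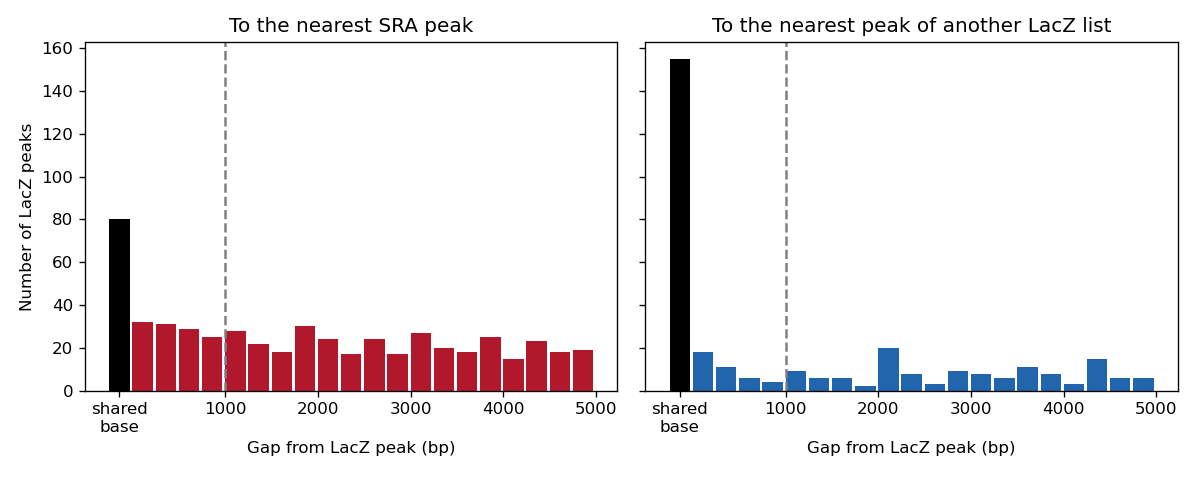
Number of LacZ peaks (all 3 lists) by the gap in bp to the nearest SRA peak (left) and to the nearest peak of another LacZ list (right), in bins of 250 bp, with peaks that share a base in black and the limit of 1000 bp dashed. Shared bases account for 80 LacZ peaks on the left and 155 on the right, and on the left the bins beyond hold similar numbers on both sides of the limit.

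Where LacZ and SRA peaks did share bases, the length of the shared stretch varied. For LacZ lists 1 and 2, the shared stretch covered a median of 94.9 and 97.8% of the shorter peak, and the peak centres lay a median of 42.5 and 39 bp apart. In 9 of 39 pairs of LacZ list 1 and 6 of 35 pairs of LacZ list 2, however, less than 50% of the shorter peak was shared. The 6 pairs of LacZ list 3, with its wider peaks, had centres a median of 436.25 bp apart. No LacZ and SRA peak had the same start and end. The 68 pairs of overlapping peaks in LacZ lists 1 and 2 had centres a median of 20.75 bp apart, and 3 shared less than 50% of the shorter peak. Of the 191 loci with both probe sets, 77 held LacZ and SRA peaks that share a base and 114 held peaks that share none. Both subsets are set side by side below for position, score, and width.

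Of the amplified segments, that of chromosome 22 held more loci with both probe sets by count. Of the 191 loci, 27 lay between 16 and 23.63 Mb of chromosome 22, or 14.1% (9.90 to 19.8%), against 2.41% (2.10 to 2.77%) of the loci of SRA lists only and 0.984% (0.749 to 1.29%) of the loci of 1 LacZ list only. All 27 loci with both probe sets on this chromosome lay inside the segment, which also held 200 of 245 loci of SRA lists only and 51 of 68 loci of 1 LacZ list only. Among all joined loci, 2.45% lay in this segment or in that of chromosome 9. The window from 21 to 22 Mb alone held 12 loci with both probe sets, among 23 loci with a LacZ peak and 60 with an SRA peak. That from 22 to 23 Mb held 5, among 15 with a LacZ peak and 40 with an SRA peak. Both windows were chosen for these counts.

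The chromosome 9 segment from 133.6 to 135 Mb held 5 loci with both probe sets, or 2.62% (1.12 to 5.98%) of them. Loci with both probe sets numbered 3.54 per Mb in the chromosome 22 segment and 3.57 per Mb in that of chromosome 9. The chromosome 9 segment held 0.507% (0.375 to 0.684%) of the loci of SRA lists only and 0.174% (0.0914 to 0.330%) of those of 1 LacZ list only. On chromosome 22 the segment held 43, 43, and 1 peaks of the LacZ lists and 133, 127, and 188 peaks of the SRA lists. On chromosome 9 it held 10, 3, and 1 LacZ peaks and 26, 33, and 41 SRA peaks.

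In the chromosome 22 segment, LacZ loci also coincided with SRA more often at the level of single bases. Of the 81 loci with a LacZ peak there, 33.3% (24.0 to 44.1%) held an SRA peak, and in 19.8% (12.5 to 29.7%) the peaks shared a base. Outside both segments these shares were 2.96% (2.54 to 3.45%) and 1.08% (0.837 to 1.39%) of 5368 loci. SRA peaks were themselves dense in the segments, with 26.2 loci of SRA lists only per Mb on chromosome 22 and 30 on chromosome 9. All lists together held 8291 such loci. The part of SRA peak density in these shares was not tested. On the rest of chromosome 22 none of 17 LacZ loci held an SRA peak, with an upper limit of 18.4%. In the chromosome 9 segment 5 of 14 LacZ loci held an SRA peak, and in 3 of the 14, or 21.4% (7.57 to 47.6%), the peaks shared a base. On the rest of chromosome 9 the counts were 7 and 1 of 138. Of the 77 loci where the peaks share a base, 24.7% (16.4 to 35.4%) lay in either segment, against 11.4% (6.79 to 18.5%) of the 114 where they share none.

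Of the 88 loci of 2 or 3 LacZ lists with no SRA peak, 3 lay in the chromosome 22 segment, or 3.41% (1.17 to 9.55%), and none in the chromosome 9 segment, with an upper limit of 4.18%. The first interval includes the 2.41% found for loci of SRA lists only, and lies above the 0.984% found for loci of 1 LacZ list only, whose own interval it overlaps. Counting all LacZ loci in the chromosome 22 segment, with or without an SRA peak, 6.17% (2.67 to 13.6%) of 81 were in 2 or 3 LacZ lists. Outside both segments this share was 1.64% (1.33 to 2.02%).

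Few loci lay beside centromeres. hg19 has a gap without sequence at each centromere, and of the 274 loci on chromosomes with such a gap 8 lay within 1 Mb of it. All 8 held both probe sets, which is 4.28% (2.18 to 8.21%) of 187, against 0.873% (0.693 to 1.10%) of the loci of SRA lists only, 0.928% (0.701 to 1.23%) of those of 1 LacZ list only and 0.935% of all joined loci. In 7 of the 8 the LacZ and SRA peaks shared no base. For loci where the peaks share a base the proportion was 1 of 73, or 1.37% (0.242 to 7.36%), an interval that includes the share of loci of 1 probe set. These distances leave out the unsequenced heterochromatin that adjoins the centromere gap of chromosomes 1, 9, and 16 in hg19. With these stretches counted as part of the gap, a comparison added after seeing the data, 11 loci with both probe sets lay within 1 Mb, or 5.88% (3.32 to 10.2%), against 1.02% (0.823 to 1.26%) of the loci of SRA lists only. In 3 of the 11 the peaks shared a base, which is 4.11% (1.41 to 11.4%) of 73, an interval that no longer includes the share of loci of SRA lists only. The share of all loci meeting the rule, 2.92%, became 1.09% when 2 SRA lists were required, and 6.73% without LacZ list 1.

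The median distance to the centromere gap was 29.1 Mb for loci with both probe sets, 45.9 Mb for recurrent LacZ loci, 39.5 Mb for loci of 1 LacZ list only and 38.5 Mb for loci of SRA lists only. Within 5 Mb of the gap lay 9.63% (6.18 to 14.7%) of the loci with both probe sets and 9.20% (4.73 to 17.1%) of the recurrent LacZ loci. For loci of SRA lists only the share was 6.01% (5.52 to 6.54%). The chromosome 22 segment begins at the edge of the gap of that chromosome and held 6 of the 18 loci with both probe sets within 5 Mb. Without this segment, a comparison added after seeing the data, the median distance of loci with both probe sets was 39.3 Mb, against 39.8 Mb for loci of SRA lists only. The shares within 5 Mb were then 7.50% (4.34 to 12.7%) and 5.00% (4.55 to 5.50%), and those within 1 Mb 4.38% (2.14 to 8.75%) and 0.869% (0.689 to 1.10%). For recurrent LacZ loci the share within 5 Mb was then 5.95% (2.57 to 13.2%). The median distance was 21.2 Mb for loci where the peaks share a base and 32.1 Mb where they share none, but without the segment the order turned, with 41.1 and 37.8 Mb. The shares within 5 Mb were 5.48% (2.15 to 13.3%) and 12.3% (7.46 to 19.6%), and without the segment 3.51% (0.968 to 11.9%) and 9.71% (5.36 to 17.0%). None of the 87 recurrent LacZ loci on chromosomes with a gap lay within 1 Mb, with an upper limit of 4.23% that includes the 0.935% of all joined loci.

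**Figure D2:**
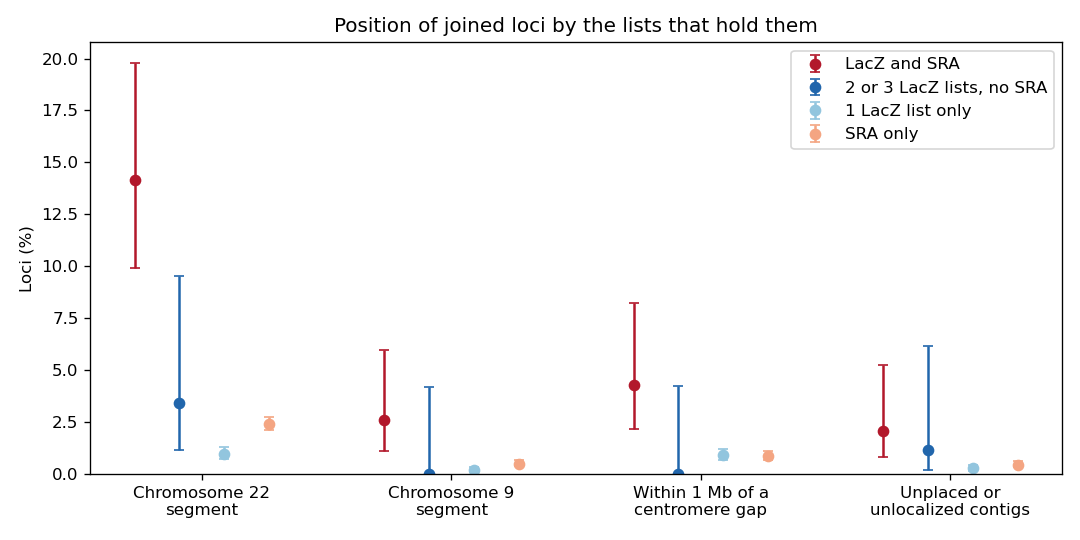
Share of joined loci (%) in each kind of position, for loci with both probe sets, recurrent LacZ loci with no SRA peak, loci of 1 LacZ list only and loci of SRA lists only, with 95% Wilson intervals for counting error. Loci with both probe sets stand at 14.1% in the chromosome 22 segment, against 2.41% for SRA lists only, and at 4.28% within 1 Mb of a centromere gap, where 7 of 8 share no base.

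Across chromosomes the loci with both probe sets were most numerous on chromosome 1, with 38 loci or 19.9%, followed by chromosome 22 with 27 or 14.1%. Chromosome 22 held 2.49% of all joined loci. Chromosome 9 held 12 loci or 6.28%, against 3.50% of all joined loci, and 5 of the 12 lay in the amplified segment. It also held 6.82% of the recurrent LacZ loci, none of them in that segment. Chromosome 7 with 7.85% and chromosome 19 with 6.81% were near their shares of all joined loci, 7.87 and 6.10%. Chromosome 1 held 13.9% of all joined loci, 14.3% of the loci where LacZ and SRA peaks share a base (11 of 77), and 23.7% of those where they share none (27 of 114). On chromosome 1, 4 of the 18 LacZ loci from 16 to 17 Mb held an SRA peak, 3 of 10 from 120 to 121 Mb, and 3 of 8 from 149 to 150 Mb, windows chosen for these counts. Of the 152 windows of 1 Mb with such a locus, 135 held only 1. The 8 windows with at least 3 loci held 38 of the 191, and 5 of these 8 were on chromosome 22 or 9. Chromosomes 13, 14, and X held no locus with both probe sets and only 0.378, 0.909, and 0.742% of all joined loci, and no LacZ peak lay on chromosome M. On contigs not placed on a chromosome, 4 of 19 LacZ loci held an SRA peak, and in all 4 the peaks shared a base.

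**Figure D3:**
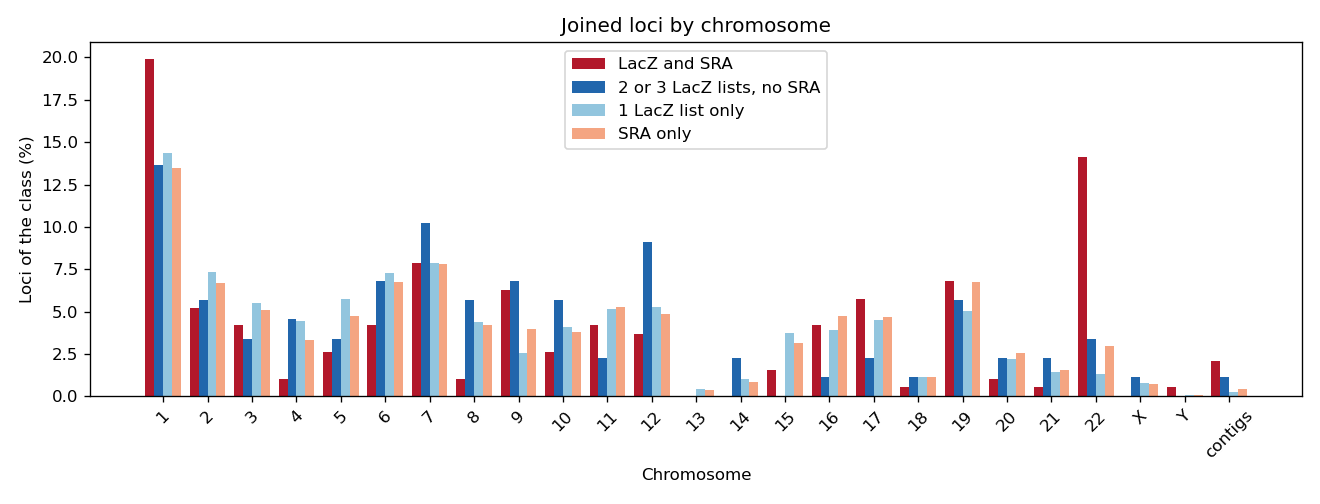
Percentage of the loci of each class on each chromosome, with contigs not placed on a chromosome at the right. Chromosome 22 holds 27 of the 191 loci with both probe sets and chromosome 1 holds 38, whereas chromosome 22 holds 3.41% of the recurrent LacZ loci with no SRA peak and 1.31% of the loci of 1 LacZ list only.

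Among loci with both probe sets, those with the highest SRA scores lay on an unplaced contig and beside a centromere. Their main peaks had nearly the same bounds with either probe set. At each of these loci the SRA lists also held a peak that overlapped no LacZ peak. The only locus with peaks in 5 lists was chrUn_gl000220:126764-132854, on a contig that carries ribosomal RNA gene sequence. Its highest score was 68.13 in LacZ list 1 and 94.25 in LacZ list 2, against 291.93, 385.6, and 232.27 in SRA lists 1, 2, and 3. LacZ list 3 held no peak there. At this locus the main peak ran from 126764 to 128617 in LacZ list 1, from 126765 to 128623 in LacZ list 2, and from 126765 to 128622 in the SRA lists. The score is derived from a p-value by MACS. This locus and the next were named for their high SRA scores among other reasons, so SRA scores above the LacZ scores follow from the choice.

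The locus nearest to a centromere gap was chr6:58776479-58779377, 50.8 kb from the gap of chromosome 6. It scored 62.38 in LacZ list 2 and had no peak in LacZ lists 1 and 3, whereas SRA lists 1, 2, and 3 gave 420.88, 609.97, and 292.6. Its main peak began at 58777060 with both probe sets and ended at 58779377 in LacZ list 2 and at 58779371 in the SRA lists. The next nearest loci were weaker. On chromosome 10 the locus chr10:42354919-42356414, 99.98 kb from the gap, scored 42.73 in LacZ list 2 and 60.78 in SRA list 2, and its peaks shared no base. On chromosome Y the locus chrY:9931951-9932876 scored 45.85 and 45.67 in LacZ lists 1 and 2 and 42.5 in SRA list 3, and here too LacZ and SRA peaks shared no base.

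In the chromosome 22 segment, SRA peaks had the higher top score at 21 of the 27 loci with both probe sets and LacZ peaks at 6. The top score is the highest of any peak in the lists of a probe set, and 16 of these 27 loci had peaks of more SRA than LacZ lists. Outside both segments SRA peaks had the higher top score at 85 of 159 loci and LacZ peaks at 74, and 75 of the 159 had peaks of more SRA than LacZ lists. The part of the number of lists in this difference was not tested. The loci described next were those in the most lists and, among these, with the highest score, so their high SRA scores follow from the choice. On chromosome 22 the locus chr22:21322290-21326409 scored 55.43 in LacZ list 1 and 78.18, 59.77, and 66.68 in the SRA lists. The locus chr22:22269780-22271387 scored 40.89 in LacZ list 2 and 94.64, 58.81, and 65.77 in the SRA lists. The locus chr22:22901271-22903020 scored 48.06 in LacZ list 1 and 75.77, 62.42, and 83.95 in the SRA lists. At all 3 loci 1 LacZ list held a peak. Among the 27 loci with both probe sets in the segment, the highest LacZ score, 66.53, was at chr22:21801459-21802887. The highest SRA score there was 48.4, and the locus was chosen after its values were seen.

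In the chromosome 9 segment SRA peaks had the higher top score at 4 of 5 loci, and the 3 loci in the most lists are given first. The locus chr9:133822008-133824022 scored 42.87 in LacZ list 1 and 70.35, 47.74, and 75.69 in the SRA lists. The locus chr9:133887970-133890788 scored 41.26 in LacZ list 2 and 40.2, 64.59, and 65.84 in the SRA lists. The locus chr9:133941791-133946945 scored 41.91 in LacZ list 1 and 93.87, 60.02, and 74.74 in the SRA lists, and its LacZ and SRA peaks shared no base. The LacZ scores at these loci were close to the lowest score in the lists, 40. Among the 5 loci with both probe sets in the segment, the highest LacZ score, 67.28, was at chr9:134129206-134132492. The highest SRA score there was 52.11, and this locus too was chosen after its values were seen.

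The loci described next, outside the segments, were chosen for their high LacZ scores, so that a LacZ score above the SRA scores follows from the choice. The locus chr9:66483757-66484446 scored 77.24 in LacZ list 2 and 46.95, 57.06, and 40.13 in the SRA lists. The locus chr1:149307414-149308396 scored 75.78 in LacZ list 1 and 42.65 in SRA list 2, without a shared base. The locus chr1:142821973-142822067 scored 71.67 in LacZ list 1 and 66.75 and 57.18 in SRA lists 1 and 3. Here all the peaks lay within 94 bp of sequence. The locus chr1:16860891-16861048 scored 69.2 in LacZ list 1 and 52.56 in SRA list 1.

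The 7 loci in all 3 LacZ lists lay at least 3.06 Mb from a centromere gap and outside the amplified segments. The strongest, chr12:133022187-133023134, scored 181.71, 102.67, and 80.53 in LacZ lists 1, 2, and 3, and 181.71 was the highest score of any peak in the LacZ lists. The locus chr6:10499057-10499933 scored 152.24, 49.41, and 47.88, and chr9:102579800-102581292 scored 70.31, 102.67, and 49.11. The locus chr9:139822001-139822981 scored 70.61, 50.03, and 83.02, the last being the highest score of LacZ list 3. The locus chr10:111828839-111829588 scored 64.72, 41.76, and 53.37. The lowest scores of this kind were at chr12:51347507-51348375, with 49.44, 40.07, and 45.21, and at chr20:32433867-32434800, with 46.58, 50.88, and 40.55.

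**Figure D4:**
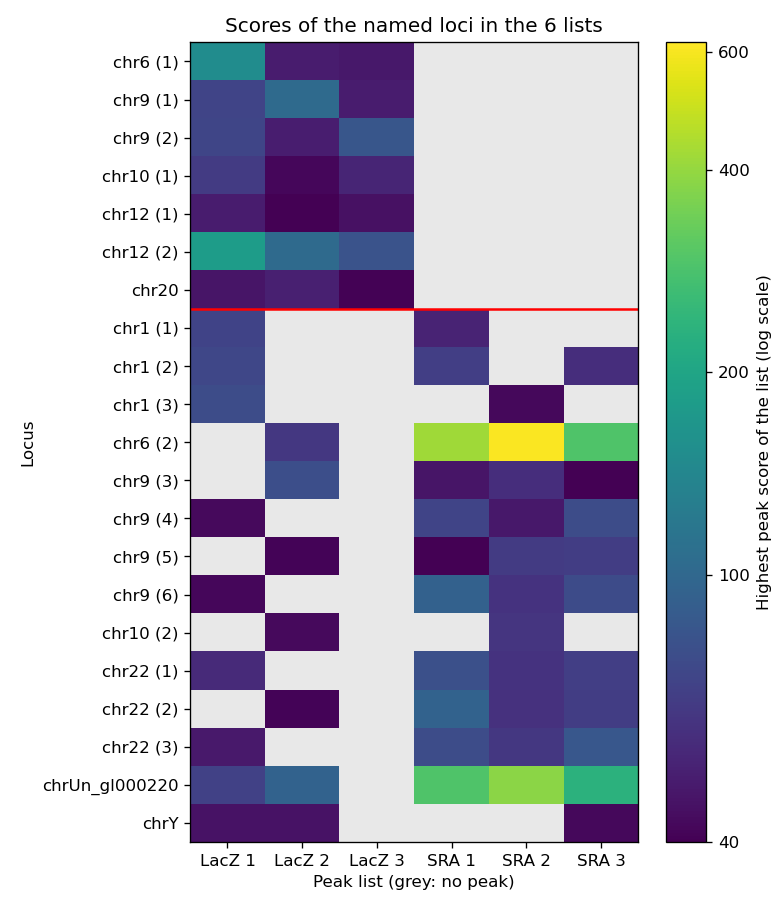
Highest peak score of each list (colour, log scale) at the named loci, with grey where a list held no peak and numbers in parentheses counting loci of a chromosome. The 7 loci above the red line carry a peak of every LacZ list but none of SRA, and the 2 loci with the highest SRA scores below it are on chromosome 6 and on the contig gl000220.

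Scores of peaks in the loci were slightly above those of other peaks, with wide overlap. In loci with both probe sets the median score was 45.9, 46.7, and 46.5 in SRA lists 1, 2, and 3, against 43.8, 43.8, and 44.2 for peaks of loci not meeting the rule. It was 45.3 and 45.5 in LacZ lists 1 and 2, against 44.0 in each, but 42.0 against 44.9 in LacZ list 3, with 12 peaks. In recurrent LacZ loci the median was 46.8, 47.8, and 47.9 in LacZ lists 1, 2, and 3. The ranges from the 25th to the 75th percentile overlapped between these sets in every list. Score and presence in a second list are not independent measures.

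The excess in score and width was larger at loci where LacZ and SRA peaks share a base in SRA lists 1 and 2, and less so in SRA list 3. All peaks of such loci were counted. Where LacZ and SRA peaks share a base, the median score was 47.9, 47.9, and 46.8 in the SRA lists, and where they share none 43.3, 45.2, and 46.1. Joining widens a locus, so widths were compared for single peaks. Peaks over 300 bp wide made up 39.0, 38.6, and 33.3% of the SRA peaks in loci where the peaks share a base, and 15.3, 14.9, and 24.2% where they share none. Among SRA peaks of loci not meeting the rule they made up 5.98, 6.20, and 6.86%. In LacZ lists 1 and 2, 27.5 and 38.9% of the peaks in loci with a shared base were over 300 bp wide, against 3.90 and 3.63% in loci not meeting the rule. Width and sharing a base are likewise not independent. Scores and widths of these 2 subsets were not compared without the amplified segments. The segments held 24.7% of the loci with a shared base and 11.4% of those without. At loci with both probe sets the median top SRA score was 55.9 and 65.8 in the chromosome 22 and 9 segments, against 45.7 outside. Median widths differed less, with 218, 218, and 203 bp in the SRA lists at loci with a shared base and 157, 157, and 158 bp at loci not meeting the rule.

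**Figure D5:**
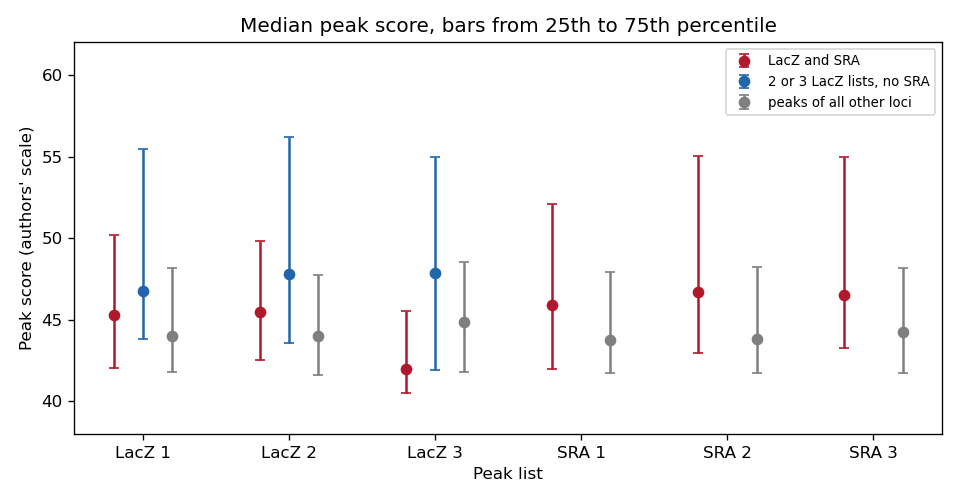
Median peak score on the authors' scale in each list, with bars from the 25th to the 75th percentile, for peaks in loci with both probe sets, in recurrent LacZ loci with no SRA peak and in all other loci. Medians of the loci lie above those of other loci except for LacZ list 3 with both probe sets (42.0 against 44.9), and the bars overlap in every list.

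Loci with both probe sets were not set apart by the number of SRA lists that hold them. Of the 191 loci, 49.7% (42.7 to 56.8%) held peaks of 1 SRA list, 30.4% (24.3 to 37.2%) of 2, and 19.9% (14.9 to 26.1%) of all 3. For loci of SRA lists only the shares were 46.3, 31.8, and 21.9%. A LacZ peak was found in 2.41% (1.98 to 2.94%) of the loci of 1 SRA list, 2.15% (1.67 to 2.78%) of those of 2, and 2.05% (1.50 to 2.80%) of those of all 3. Requiring a peak in more SRA lists therefore left the share of loci with a LacZ peak, with or without a shared base, within counting error.

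In loci with 1 SRA list, counts differed by the replicate number of the lists. LacZ list 1 shared 27 such loci with SRA list 1, 14 with SRA list 2, and 9 with SRA list 3. LacZ list 2 shared 6, 20, and 15 with SRA lists 1, 2, and 3, and LacZ list 3 shared 2, 1, and 4. The highest count in each LacZ list was with the SRA list of the same number. Whether lists of the same number shared an input or a preparation was not tested.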

How the data were processed

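ChIRP was performed by the authors in K562 cells, and single-end reads of 50 bp were aligned to hg19. MACS peaks were deposited per sample, with a score headed as −log10 of the p-value. The deposited score starts at 40 in every list and was compared as deposited between peaks, loci, and lists, whose read depth is unknown. The MACS version, the control of each list and the handling of duplicate reads are not given in the sources used here. The submitters' processing notes also name CASAVA 1.8.2 and deepTools.

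Peaks of the 6 lists up to 1000 bp apart were joined, and bounds are printed as in the lists. The bounds of the 24 centromere gaps of hg19, of the adjoining heterochromatin gaps of chromosomes 1, 9, and 16, and of the 2 segments were entered by hand, and no joined locus overlapped a gap. Distances run from the nearer edge of the centromere gap unless stated. The members and rules were chosen with earlier results of these data known. Named loci were those in all 3 LacZ lists, in 5 or more lists, with the 5 highest LacZ and the 5 highest SRA scores among loci with both probe sets, the 3 of each segment in most lists, and the 3 nearest to a centromere gap. Joining was tested on simulated lists. No sequences or genes are given, because the reference used here is of another build. Tables were handled with pandas 2.3.3 and numpy 2.4.6 in Python 3.11.15, intervals computed with scipy 1.17.1, and figures drawn with matplotlib 3.10.9.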

Additional observations from a re-analysis of the deposited data

How the results depend on the processing

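The number of loci depended on the join. The 279 loci meeting the rule and the 191 with both probe sets became 224 and 139 with a join distance of 500 bp, 377 and 281 when it was 2000 bp, 150 and 78 when peaks had to share at least 1 bp, and 115 and 72 with the lower-scoring peaks, those below the median of their list, removed. With 2 SRA lists required, 96 loci held both probe sets. Leaving out single lists, the loci meeting the rule ranged from 106 to 257 and those with both probe sets from 96 to 179, lowest without LacZ list 1 (106 and 96) and next without LacZ list 2 (125 and 111). The share of loci in the amplified segments, 12.5%, stayed within its counting interval under every alternative run, and ranged from 11.8 to 16.0% when single lists were omitted. The share within 1 Mb of a centromere gap, 2.92%, was 1.39% when peaks had to share at least 1 bp and 1.09% with 2 SRA lists required, and ranged from 1.64 to 6.73% when single lists were omitted. It was 0.730% within 100 kb and 9.49% within 5 Mb, 2.87% without the chromosome 22 segment, and 4.01% with the heterochromatin gaps of chromosomes 1, 9, and 16 included, both alternatives chosen after seeing the data. No paired analysis was possible because no result comes from a test over samples, and the counts by replicate number are given as a description only. Read depth is unknown, and a locus with no peak in a list may hold reads below the limit for a peak.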
